A study of Mus musculus with 9 samples.

Results

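The 87 genes described here encode subunits of the mitochondrial oxidative phosphorylation complexes from the nuclear genome. They were chosen by symbol, without use of any measured value, as the protein-coding genes of the Ndufa, Ndufb, Ndufc, Ndufs, Ndufv, Uqcr, Cox4 to Cox8 and Atp5 families together with Sdhb, Sdhc, Sdhd, Cyc1 and Cycs. They are 87 of the 54281 genes in the deposited count table and carry 86 symbols, since Atp5o stands there under 2 identifiers. Complex I contributes 36 genes, complex II 3, complex III 9, complex IV 20 and complex V 18, and Cycs, the gene for cytochrome c, stands alone as the mobile carrier. Ndufa4 and its paralog Ndufa4l2 are counted with complex IV, where the NDUFA4 protein is now placed. The catalytic subunit gene of complex II, Sdha, and the assembly factor genes are not among the 87 and are given separately.

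RNA was measured by total RNA sequencing in macrophages washed from the lungs of 9 wild-type female mice, 12 weeks of age. The labels name no strain. Of these mice, 3 breathed air, 3 were taken 24 h after ozone at 0.8 ppm for 3 h, and 3 were taken 72 h after the same exposure, with 1 library per mouse. Ozone is an oxidant gas that reacts in the lining of the airways and alveoli.

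Oxidative phosphorylation makes ATP in the inner mitochondrial membrane. Complexes I and II pass electrons from NADH and succinate to ubiquinone, complex III passes them on to cytochrome c, and complex IV hands them to oxygen. Complexes I, III and IV pump protons, and complex V, the ATP synthase, uses the returning protons to make ATP. Resident alveolar macrophages are known for a reliance on lipid oxidation and oxidative metabolism. Most subunits are made from nuclear genes and imported, while the mitochondrial genome encodes the few that form the membrane cores, so that each of complexes I, III, IV and V combines products of both genomes.

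Levels are given in CPM, read counts scaled by library size, as mean ± SD of 3 mice. Each difference is a log2 fold change with its SE from the edgeR fit. A gene is called when its p-value, adjusted over all 15713 genes tested, was under 0.05. Totals were 47095543 to 60248305 counts per library. Of the 87 genes, 81 passed the filter on low counts and were tested. The 6 below it were the alternative complex IV genes Cox4i2, Cox7b2, Cox8b, Cox8c and Ndufa4l2, and the second Atp5o identifier, of which 3 had no count in any library. The cells carried all 16 resident alveolar macrophage markers, at a summed 25794 to 41005 CPM. Replicate 2 at 24 h and replicate 1 at 72 h stood apart: they held 1638 and 905 CPM of B cell markers, against 1.97 to 11.7 CPM in the other 7 libraries, and 624 and 818 CPM of serous cavity macrophage markers, against 4.23 to 7.25 CPM. All 10 B cell markers and all 9 serous cavity macrophage markers were counted in both. T cell markers summed to 768 and 82.5 CPM there, against 4.87 to 15.9 CPM in the other 7 libraries. Recruited monocyte markers summed to 305 and 245 CPM, against 108 to 165 CPM. Erythroid markers were not confined to these 2. They summed to 23.8 to 83.5 CPM in air. In replicates 1 to 3 they summed to 855, 2909 and 143 CPM at 24 h, and to 2510, 75.7 and 12.2 CPM at 72 h. Air replicate 2 held 2.42 CPM of Xist, the RNA of the inactive X chromosome, against 887 to 1482 CPM in the other 8 libraries, although every mouse is labelled female. Counts of called genes are therefore also given without the 2 libraries with B cell markers, and without these and air replicate 2. In RNA from whole cell samples, fewer cells of a type and less RNA per cell cannot be told apart.

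Promoters are shown for 7 of the genes, because the subunit genes are known to be controlled through shared factors: nuclear respiratory factor 1 (NRF1), the GA-binding protein of the ETS family, YY1 and the estrogen-related receptors (ERR). For complexes I, II, III and V and for cytochrome c, the promoter is that of the gene with the smallest p at 72 h against 24 h that holds an NRF1, ETS or YY1 word, and for complex IV the Cox6b1 and Cox6b2 pair is set side by side because these paralogs moved in opposite directions. Each sequence runs from 250 bases before to 50 bases after the RefSeq transcription start on GRCm38.p6, written in the direction of transcription, with capitals marking the words GCGCA, any base, GCGC (NRF1, 10 letters), GCATGCGC (a shorter NRF1 core, added after sequences had been viewed, which overlaps the first), CCGGAAG (ETS), ATGGCGGC (YY1) and CAAGGTCA (ERR) on either strand.
Ndufa9: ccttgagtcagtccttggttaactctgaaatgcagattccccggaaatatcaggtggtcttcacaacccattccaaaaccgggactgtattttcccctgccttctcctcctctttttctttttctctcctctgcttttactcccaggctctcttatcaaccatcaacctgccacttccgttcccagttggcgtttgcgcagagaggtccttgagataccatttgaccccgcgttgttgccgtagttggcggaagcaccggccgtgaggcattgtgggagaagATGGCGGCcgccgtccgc
Sdhd: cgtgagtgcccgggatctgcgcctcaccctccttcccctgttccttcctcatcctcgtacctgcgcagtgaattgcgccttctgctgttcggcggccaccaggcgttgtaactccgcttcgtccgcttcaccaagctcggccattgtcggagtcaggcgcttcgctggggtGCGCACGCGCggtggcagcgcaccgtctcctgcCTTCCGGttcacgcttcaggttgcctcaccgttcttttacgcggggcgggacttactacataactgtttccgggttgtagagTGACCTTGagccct
Uqcrc1: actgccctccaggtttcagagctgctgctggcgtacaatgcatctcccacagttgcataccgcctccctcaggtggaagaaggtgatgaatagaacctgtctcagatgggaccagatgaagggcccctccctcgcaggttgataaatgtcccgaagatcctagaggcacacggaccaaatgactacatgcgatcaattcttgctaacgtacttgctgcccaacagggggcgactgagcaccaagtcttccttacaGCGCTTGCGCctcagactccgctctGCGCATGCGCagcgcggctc
Cycs: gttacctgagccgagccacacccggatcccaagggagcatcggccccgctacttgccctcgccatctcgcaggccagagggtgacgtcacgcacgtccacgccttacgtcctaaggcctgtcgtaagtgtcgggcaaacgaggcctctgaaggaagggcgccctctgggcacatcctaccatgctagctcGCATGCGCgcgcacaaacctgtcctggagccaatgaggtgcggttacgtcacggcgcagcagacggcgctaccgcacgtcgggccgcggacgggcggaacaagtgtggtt
Atp5o: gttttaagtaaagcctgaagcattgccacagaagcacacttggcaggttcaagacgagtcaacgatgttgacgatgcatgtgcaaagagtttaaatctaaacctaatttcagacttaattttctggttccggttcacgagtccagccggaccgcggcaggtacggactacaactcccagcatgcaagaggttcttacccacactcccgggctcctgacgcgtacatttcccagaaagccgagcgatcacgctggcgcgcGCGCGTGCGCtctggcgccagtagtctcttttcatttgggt
Cox6b1: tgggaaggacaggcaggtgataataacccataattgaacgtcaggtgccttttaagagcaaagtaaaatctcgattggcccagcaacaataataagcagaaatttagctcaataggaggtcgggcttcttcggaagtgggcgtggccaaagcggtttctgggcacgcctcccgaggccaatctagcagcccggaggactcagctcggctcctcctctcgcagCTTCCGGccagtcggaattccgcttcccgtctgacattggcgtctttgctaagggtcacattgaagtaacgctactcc
Cox6b2: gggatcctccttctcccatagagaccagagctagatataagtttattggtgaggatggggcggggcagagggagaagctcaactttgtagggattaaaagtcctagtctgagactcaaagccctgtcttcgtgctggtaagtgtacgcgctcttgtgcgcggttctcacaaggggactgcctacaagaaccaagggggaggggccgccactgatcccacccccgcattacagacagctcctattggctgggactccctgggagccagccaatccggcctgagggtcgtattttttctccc
Ndufa9 lies at chr6:126849095-126849394 on the minus strand, Sdhd at chr9:50603800-50604099 on the minus strand, Uqcrc1 at chr9:108936398-108936697 on the plus strand and Cycs at chr6:50566520-50566819 on the minus strand. Atp5o lies at chr16:91931581-91931880, Cox6b1 at chr7:30626065-30626364 and Cox6b2 at chr7:4753045-4753344, all on the minus strand.

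In these windows Uqcrc1 held the longer NRF1 word 2 times, Sdhd held 1 NRF1, 1 ETS and 1 ERR word, Ndufa9 held 1 YY1 word close to the start, Atp5o held 1 NRF1 word, Cycs held 1 NRF1 core and Cox6b1 held 1 ETS word. Cox6b2 held none of the 5 words, and neither did Cox5a and Ndufa12, which fell at 72 h against 24 h. Of the 60 genes called lower in that contrast with a matched promoter, 32 held an NRF1 word, the core included, or an ETS or YY1 word. RefSeq promoters were matched for 65 of the 81 tested genes. The longer NRF1 word was in 16 of these 65 (24.6%), against 5.19% of 27025 genes with RefSeq promoters of the same length. A gene was counted when any of its promoters held the word. The NRF1 core was in 11 (16.9%, against 3.05%), the ETS word in 16 (24.6%, against 9.93%), the YY1 word in 6 (9.23%, against 2.61%) and the ERR word in 4 (6.15%, against 1.76%). At least 1 of the NRF1 words, the core included, and the ETS and YY1 words was in 34 of the 65 (52.3%), against 17.1% of the 27025 genes. The core in this count was added after sequences had been viewed. The 27025 genes were not limited to the genes tested here, and base composition was not matched. These are matches of letters and not measured binding.

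In air, subunit genes of complexes IV and V had the highest levels per length and those of complex I the lowest among the 5 complexes. The median level was 134 CPM per kb for the tested genes of complex IV, 117 for complex V, 80.2 for complex III, 72.2 for complex II and 43.0 for complex I. Cycs stood at 16.6 ± 0.511 CPM per kb. Levels per length use the longest principal protein-coding transcript, and with the merged exons of each gene the medians were 64.8, 45.8, 59.6, 36.8 and 26.4 CPM per kb in the same order, with cytochrome c at 15.2, so that complex III then lay above complex V. The highest gene of all was Atp5b, the catalytic beta subunit of ATP synthase, at 407 ± 7.12 CPM per kb, followed by Cox4i1, the general isoform of complex IV subunit 4, at 313 ± 25.9. Within the other complexes the highest were Uqcrb at 166 ± 4.46 in complex III, Sdhd at 99.0 ± 6.65 in complex II and Ndufa1 at 88.2 ± 6.29 in complex I. The spread within a complex was wide: Ndufb2 stood at 3.96 CPM per kb in complex I, Uqcrq at 11.0 in complex III, Cox6a2 at 1.20 in complex IV and Atp5s at 2.43 in complex V. These values depend on the transcript taken. Ndufb2 had 17.3 CPM over 4371 bases, while Ndufb4, at 19.3 CPM per kb, had 18.7 CPM over 971 bases. Which transcripts the cells used was not tested.

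**Figure D1:**
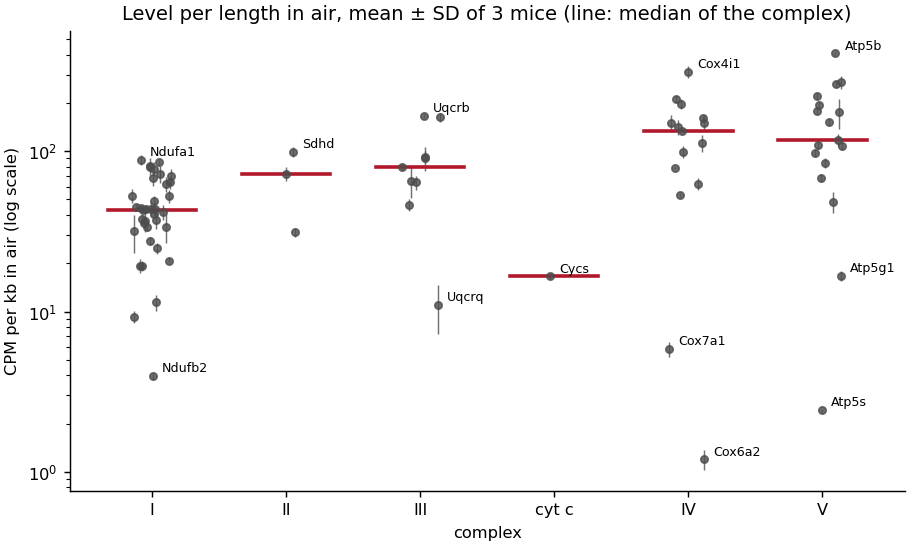
Level of each tested gene in air in CPM per kb of transcript on a log axis, grouped by complex, as mean and SD of 3 mice, with the median of each complex as a line. The medians of complexes IV and V, 134 and 117 CPM per kb, lie above that of complex I at 43.0, and single genes such as Cox6a2 and Atp5s lie far below their complexes.

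Complex IV and ATP synthase use alternative genes for some subunits, and in air the general forms dominated. Cox4i1 stood at 313 CPM per kb and Cox4i2, known as the lung and hypoxia isoform of the same subunit, at 0.119, with 3 to 9 counts in each of the 9 libraries. Cox6a1 stood at 150 CPM per kb against 1.20 for the heart and muscle isoform Cox6a2, and Cox7a2 at 99.2 against 5.87 for the heart and muscle isoform Cox7a1. Cox7a2l, a paralog of subunit 7A found in respiratory supercomplexes, stood at 150, above Cox7a2. Cox8a stood at 141, while the muscle isoform Cox8b had at most 1 count and the testis isoform Cox8c none. Cox7b stood at 78.6 and its paralog Cox7b2 had no count, and Ndufa4 stood at 160 while Ndufa4l2 had at most 2 counts. Markers of skeletal and cardiac muscle summed to 1.06 to 3.11 CPM. For subunit 6B the general gene was again the higher, but the tissue isoform was well counted. Cox6b1 stood at 211 CPM per kb and Cox6b2, known as the testis isoform, at 53.2. Subunit c of ATP synthase is made from 3 genes, of which Atp5g3 stood at 269, Atp5g2 at 195 and Atp5g1 at 16.7 CPM per kb. The transcript lengths used were 723, 731 and 4715 bases in this order. Without division by length the genes stood at 194, 142 and 79.0 CPM.

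At 24 h after ozone no subunit gene was called in either direction. By edgeR 0 of 81 were lower and 0 higher, where among all genes tested 0.00636% were called lower and 0% higher. At an unadjusted edgeR p under 0.05, in either direction, there were 10 of the 81, against 2314 of the 15713 genes tested. DESeq2 called 1 lower, Cox6b2 (1.23% of all genes), and limma voom called none. The log2 fold change was positive for 73 of the 81 genes, against 52.4% of all genes, with a median of 0.10, against 0.01 for all genes. The 3 mice at 24 h all lay above the 3 air mice for 12 of the 81 (10.4% of all genes did so), and all below for 1 (9.06%). By complex the median log2 fold change was 0.09 for complex I, 0.05 for II, 0.12 for III, 0.07 for IV and 0.12 for V. The size of the set's median rested on single libraries: it was 0.05 without air replicate 1 and 0.16 without air replicate 3. Without replicate 2 at 24 h and replicate 1 at 72 h it was 0.06, with a negative value for 17 of the 81 genes. Without air replicate 2 as well it was 0.05, with a negative value for 24, and the median of complex IV was then -0.01. EdgeR called no subunit gene in either of these last fits.

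Single genes with values above air at 24 h included Ndufb6, an accessory subunit of complex I, at 24.3 ± 3.50 CPM in air and 30.6 ± 1.77 at 24 h (log2 fold change 0.34 ± 0.10, adjusted p = 0.210), and Cycs, at 51.7 ± 1.6 and 60.5 ± 2.68 CPM (0.23 ± 0.07, adjusted p = 0.209). Neither passed the edgeR test.

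At 72 h the subunit genes of every complex stood below air. Of the 81 tested genes 20 fell and none rose by edgeR, where 3.77% of all genes tested were called lower and 1.71% higher. The log2 fold change was negative for 80 of 81 genes, against 51% of all genes, with a median of -0.28 (a decrease of 17.7%), against -0.01 for all genes. All 3 mice at 72 h lay below all 3 air mice for 67 of the 81 genes, against 22.1% of all genes tested. The values ran from -0.55 for Ndufa5 to 0.02 for Atp5s, with quartiles at -0.32 and -0.24. Without replicate 2 at 24 h and replicate 1 at 72 h, 10 genes were lower and none higher (2.7% and 4.46% of all genes), 9 of them among the 20, and the median was -0.23. Without air replicate 2 as well, 2 genes were lower (0.827% of all genes), both among the 20, and the median was -0.28.

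The count at 72 h against air rested on single libraries while the median did not. It was 0 of 81 without air replicate 2, without air replicate 3, without replicate 1 at 72 h or without replicate 2 at 72 h, and 36 without replicate 2 at 24 h. It was 1 without replicate 3 at 72 h, 3 without replicate 1 at 24 h, 4 without air replicate 1 and 11 without replicate 3 at 24 h. Among all genes tested the share called lower was 0.0318%, 0.0318%, 0.0573%, 0.0127%, 5.13%, 0.115%, 0.872%, 0.872% and 2.47% in these 9 fits, in the order given. Called lower under DESeq2 were 51 of the 81 (7.78% of all genes).

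Relative to the air mean, the median of the 81 genes was -0.08, -0.03 and 0.11 on the log2 scale in the 3 air libraries, 0.08, 0.18 and 0.07 at 24 h, then -0.32, -0.29 and -0.23 at 72 h. The 72 h libraries lay below all others, and the 24 h libraries lay within or just above the range of air. The highest value at 24 h came from replicate 2, one of the libraries with B cell markers. Together the 81 genes made up 0.642%, 0.661% and 0.736% of all counts in air, 0.710%, 0.764% and 0.710% at 24 h, then 0.563%, 0.573% and 0.598% at 72 h. Within air, replicate 3 had the highest value for 76 of the 81 genes and replicate 1 the lowest for 59. Most of the set thus differed in a shared direction among the air mice too. Summed dendritic cell markers were 99.9 to 115 CPM in all 3 libraries at 72 h, against 43.8 to 95.9 in the other 6, and 5 of the 8 were higher in every 72 h library than in all others. Of 12 lung epithelium markers 6 were higher in every 72 h library than in all others, among them Cldn18 at 0.839 CPM on average in air and 11.5 at 72 h and Krt8 at 0.664 and 6.55, although the list's sum, mostly Krt19, was 687 to 855 CPM in air, 610 to 796 at 24 h and 546 to 716 at 72 h. Summed resident alveolar macrophage markers were 38296 to 41005 CPM in air, 25794 to 35538 at 24 h and 29643 to 35238 at 72 h, and 8 of the 16 lay below air in every 72 h library. Summed neutrophil markers were 53.8 to 66.2 CPM in air, 56.1 to 151 at 24 h and 74.7 to 138 at 72 h. No marker of the dendritic, epithelial and resident lists was at 0 in any library, and the part of these cells in the result was not tested.

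**Figure D2:**
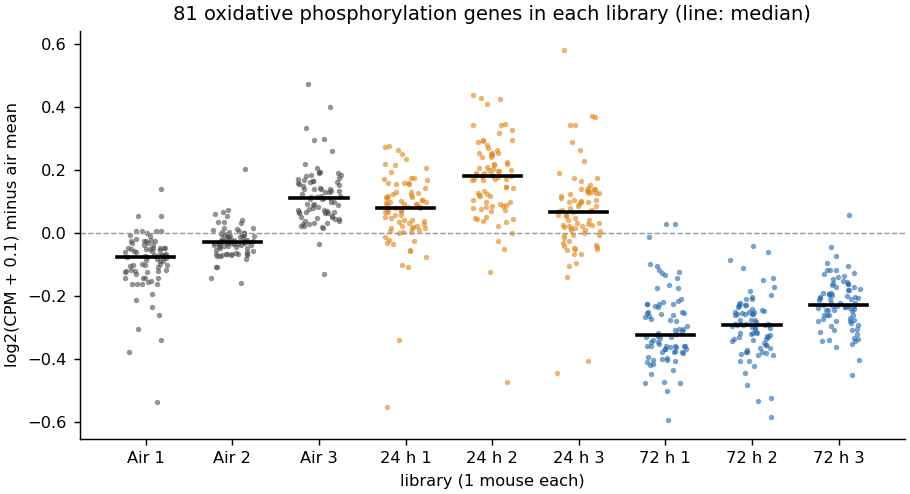
Each point is 1 of the 81 tested genes in 1 library, as log2(CPM + 0.1) minus its mean in air, and the line is the median of the library. The 3 libraries at 72 h have medians of -0.32 to -0.23, below the air libraries at -0.08 to 0.11 and the 24 h libraries at 0.07 to 0.18.

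Between 24 h and 72 h, where the gap was widest, nearly the whole set fell. Of the 81 genes 73 were called lower and 1 higher, where 12.8% and 5.39% of all genes tested were called. The median log2 fold change was -0.38 (a decrease of 23.4%), against -0.03 for all genes, and 79 genes had all 3 mice at 72 h below all 3 at 24 h, against 22.7% of all genes. The 7 genes not called were Ndufs7, Uqcrc2, Uqcrq, Cox6a2, Cox7a1, Cox7a2l and Atp5s. Without replicate 2 at 24 h and replicate 1 at 72 h, 43 genes were lower and 1 higher (8.68% and 6.63% of all genes), the 43 all among the 73, and the median was -0.30. Without air replicate 2 as well there were 31 lower, all among the 73, and 1 higher (7.16% and 4.59% of all genes). With replicate 2 at 72 h left out 18 were lower (3.25% of all genes), with replicate 1 at 24 h left out 44 (6.26%), and in the other 7 fits that leave out 1 library the count stayed within 1.5 times of 73. The comparisons of 72 h with air and with 24 h share the 72 h libraries.

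**Figure D3:**
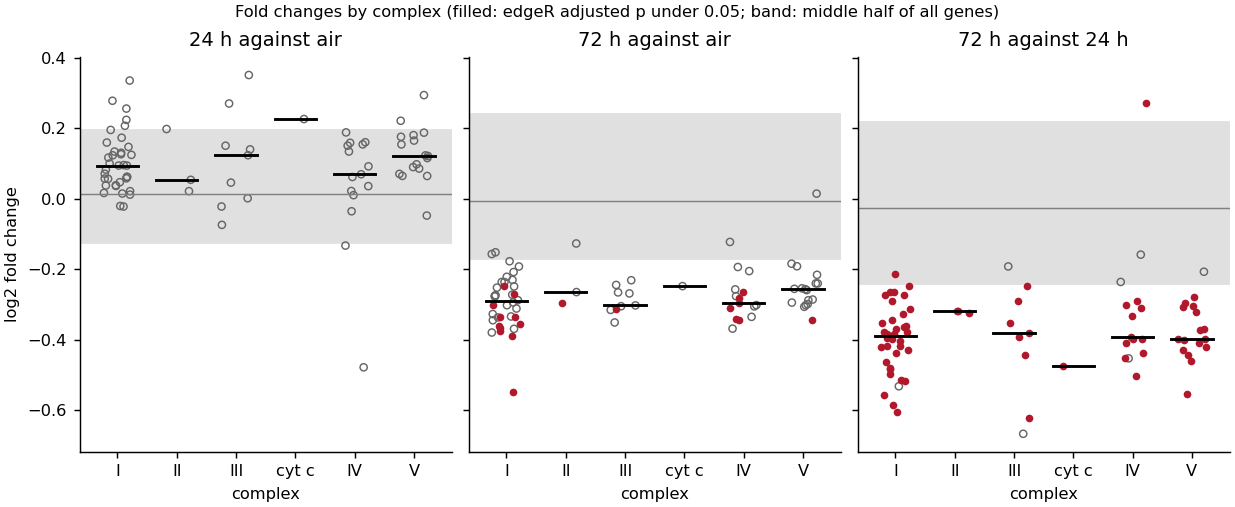
Log2 fold changes of the 81 tested genes by complex in the 3 comparisons, with called genes filled (edgeR adjusted p under 0.05), the median of each complex as a line and the middle 50% of all genes as a grey band. No gene is filled at 24 h against air, 20 are filled at 72 h against air, and 73 lower and 1 higher, Cox6b2, at 72 h against 24 h.

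By complex, the median log2 fold change at 72 h against air was -0.29 for complex I, -0.26 for II, -0.30 for III, -0.30 for IV and -0.26 for V. The genes called lower were 11 of 36, 1 of 3, 1 of 9, 6 of 15 and 1 of 17, against 3.77% of all genes. At 72 h against 24 h the medians were -0.39, -0.32, -0.38, -0.39 and -0.40. The genes called lower were then 35 of 36, 3 of 3, 7 of 9, 11 of 15 and 16 of 17, against 12.8% of all genes. A difference between complexes was not tested. The smaller number called in complex V at 72 h against air went with adjusted p-values just above the threshold, as for Atp5g3 at 0.0573 and Atp5g2 at 0.0577. Without replicate 2 at 24 h and replicate 1 at 72 h, the genes called lower at 72 h against air were 8 in complex I, 1 each in IV and V and none in II and III (2.7% of all genes). At 72 h against 24 h they were 20 in complex I, 0 in II, 3 in III, 7 in IV and 12 in V (8.68% of all genes).

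Complex I takes electrons from NADH, and its core subunits and accessory subunits fell together. Ndufa5, an accessory subunit (chr6:24518666-24528013, minus strand), had 20.2, 21.4 and 23.5 CPM in air, 20.9, 24.4 and 21.6 at 24 h, then 14.3, 14.4 and 15.8 at 72 h. Its air and 24 h values overlapped, while all 3 mice at 72 h lay below both. Its log2 fold change at 72 h was -0.55 ± 0.09 against air (edgeR adjusted p = 0.0236), the largest among the 81, and -0.59 ± 0.09 against 24 h (adjusted p = 0.00695). Without the 2 libraries with B cell markers these calls remained, at adjusted p = 0.0156 and 0.0187. Ndufa9, an accessory subunit near the ubiquinone site (chr6:126821721-126849136), had 64.2, 62.8 and 65.6 CPM in air, 66.4, 68.2 and 64.4 at 24 h, then 48.0, 50.4 and 54.1 at 72 h, with no overlap between 72 h and either other group. Its log2 fold changes at 72 h were -0.34 ± 0.06 against air (adjusted p = 0.0238) and -0.38 ± 0.06 against 24 h (adjusted p = 0.00669).

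Core subunits from nuclear genes were among those that fell at 72 h. Ndufv1, the FMN-binding subunit that accepts electrons from NADH, went from 87.1 ± 7.71 CPM in air and 89.3 ± 1.74 at 24 h to 67.8 ± 1.6 at 72 h (-0.36 ± 0.07 against air, adjusted p = 0.0289). Ndufv2, an iron-sulfur subunit beside it, went from 56.8 ± 3.19 and 57.3 ± 2.66 to 44.1 ± 2.99 CPM (-0.37 ± 0.07, adjusted p = 0.0292). Ndufs3, which belongs to the ubiquinone-reducing arm, also fell, with a log2 fold change of -0.30 ± 0.06 against air. Ndufs7, an iron-sulfur subunit at the ubiquinone site, was not called at 72 h against 24 h. It had 23.3, 29.9 and 40.0 CPM in air, 36.1, 36.1 and 39.2 at 24 h, then 30.9, 22.2 and 23.9 at 72 h, so that its spread within air was wider than the distance between groups (-0.53 ± 0.19 against 24 h, adjusted p = 0.0945).

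Accessory subunits that fell at 72 h against air also included Ndufa2, Ndufa10, Ndufa11, Ndufb3 and Ndufs5, at -0.37, -0.27, -0.36, -0.39 and -0.34. Against 24 h all 29 accessory subunits fell. Ndufa12, an accessory subunit related in sequence to the assembly factor Ndufaf2, went from 24.9 ± 1.84 CPM at 24 h to 16.4 ± 1.59 at 72 h (-0.60 ± 0.09, adjusted p = 0.00733). Ndufs6 and Ndufa8 went from 26.8 ± 1.84 to 18.7 ± 1.06 and from 45.9 ± 2.08 to 34.7 ± 1.91 CPM (-0.52 ± 0.09 and -0.40 ± 0.07). Ndufb2 lay nearest to air at 72 h, at 17.3 ± 0.638 CPM in air and 15.6 ± 1.13 at 72 h (-0.15 ± 0.07, adjusted p = 0.227).

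Complex II oxidises succinate and is the 1 complex with no mitochondrially encoded subunit. Sdhd, a membrane anchor (chr9:50596357-50603812), had 119, 116 and 131 CPM in air, 127, 125 and 119 at 24 h, then 92.5, 102 and 104 at 72 h. The 72 h mice lay below all others, and the gene fell by 0.30 ± 0.07 on the log2 scale against air (adjusted p = 0.0459). Sdhc, the other anchor, went from 98.7 ± 5.89 to 82.2 ± 5.56 CPM (-0.26 ± 0.07, adjusted p = 0.0561), and Sdhb, the iron-sulfur subunit, had 82.4 ± 7.97 in air, 94.6 ± 5.84 at 24 h and 75.5 ± 3.35 at 72 h. Sdhb was not called against air (-0.13 ± 0.08, adjusted p = 0.347) and fell against 24 h (-0.32 ± 0.08, adjusted p = 0.0269). Sdha, the flavoprotein that the symbol rule leaves out, went from 318 ± 9.4 CPM in air and 325 ± 15 at 24 h to 279 ± 13 at 72 h (-0.22 ± 0.06 against 24 h, adjusted p = 0.0478).

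Complex III carries electrons from ubiquinol to cytochrome c. The Rieske iron-sulfur protein gene Uqcrfs1 was its 1 member called at 72 h against air, with 83.5, 80.3 and 96.8 CPM in air, 87.7, 85.0 and 84.1 at 24 h, then 67.4, 68.8 and 73.7 at 72 h (-0.31 ± 0.07, adjusted p = 0.0491). Cyc1, cytochrome c1, and the core protein gene Uqcrc1 fell between 24 h and 72 h, from 78.0 ± 0.928 to 59.9 ± 1.14 CPM (-0.38 ± 0.06, adjusted p = 0.00818) and from 165 ± 1.18 to 126 ± 3.13 CPM (-0.39 ± 0.07, adjusted p = 0.00923). The second core protein gene, Uqcrc2, had 144 ± 9.92 and 126 ± 8.89 CPM and was not called (-0.19 ± 0.07, adjusted p = 0.108). The small subunit genes Uqcrq and Uqcr11 had the widest spread. Uqcrq had 11.0, 16.8 and 22.3 CPM in the 3 air mice alone, and its log2 fold change of -0.67 ± 0.25 between 24 h and 72 h did not pass the test (adjusted p = 0.0999). Uqcr11 had the largest difference from air in the complex, -0.35 ± 0.16, also not called (adjusted p = 0.207).

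Cytochrome c shuttles electrons between complexes III and IV and triggers apoptosis when released. Cycs (chr6:50562563-50566538, minus strand) had 50.8, 50.8 and 53.6 CPM in air, 62.4, 61.7 and 57.5 at 24 h, then 41.5, 41.6 and 47.6 at 72 h. The 24 h mice lay above all air mice and the 72 h mice below them. Cycs had the smallest p of the 81 genes at 72 h against 24 h (-0.47 ± 0.07, adjusted p = 0.00632), while neither time point was called against air (0.23 ± 0.07, adjusted p = 0.209, and -0.25 ± 0.07, adjusted p = 0.0655).

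Complex IV reduces oxygen, and its mitochondrially encoded catalytic core is ringed by nuclear-encoded subunits. At 72 h against air 6 of its genes fell. Cox4i1 (chr8:120668222-120674207) had 225, 232 and 262 CPM in air, 234, 256 and 241 at 24 h, then 186, 194 and 199 at 72 h (-0.31 ± 0.07 against air, adjusted p = 0.0491). Cox6a1 went from 85.8 ± 10.7 CPM in air and 95.8 ± 1.47 at 24 h to 67.6 ± 0.235 at 72 h (-0.34 ± 0.08 against air, adjusted p = 0.0479). Cox8a, Cox6c and Ndufa4 fell by 0.34, 0.28 and 0.30 on the log2 scale against air. The genes of the complex not called against 24 h were the alternative isoforms Cox6a2 and Cox7a1, at 0.632 and 1.87 CPM at 72 h, and Cox7a2l (-0.16 ± 0.08, adjusted p = 0.229). Cox7b lay nearest to air at 72 h (-0.12 ± 0.06, adjusted p = 0.219).

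The paralogs of subunit 6B went opposite ways between 24 h and 72 h. Cox6b1 (chr7:30616861-30626151) had 128, 128 and 136 CPM in air, 133, 139 and 130 at 24 h, then 102, 110 and 114 at 72 h. It fell at 72 h against air (-0.27 ± 0.06, adjusted p = 0.0468) and against 24 h (-0.30 ± 0.06, adjusted p = 0.0151). Cox6b2 (chr7:4751792-4753094, minus strand) had 30.1, 31.3 and 31.9 CPM in air, 21.2, 22.4 and 23.4 at 24 h, then 23.9, 29.3 and 27.8 at 72 h. All 3 mice at 24 h lay below all air mice and below all mice at 72 h, and the mice at 72 h lay between. It was the 1 gene called higher at 72 h than at 24 h (0.27 ± 0.08, adjusted p = 0.0498). Its difference from air at 24 h, -0.48 ± 0.08, was the largest of the 81 in that contrast and was not called by edgeR (adjusted p = 0.117), while DESeq2 gave an adjusted p of 0.000216.

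The Cox6b2 call between 24 h and 72 h lay at the threshold. It was lost in 8 of 9 fits that left out 1 library and kept without replicate 1 at 72 h (adjusted p = 0.0274). Without the 2 libraries with B cell markers the difference was 0.38 ± 0.08 (adjusted p = 0.0199). No annotated exon of another gene overlaps Cox6b2.

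**Figure D4:**
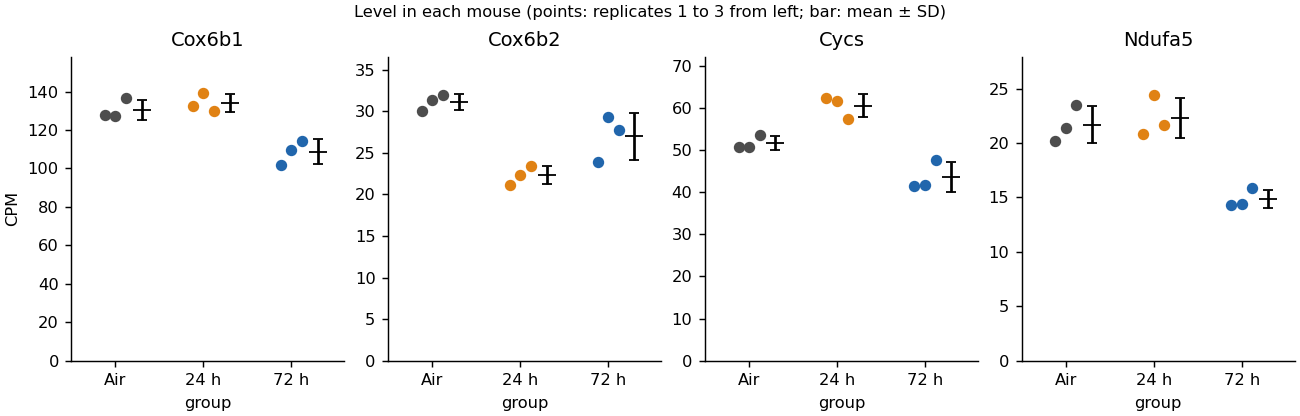
Level in CPM of Cox6b1, Cox6b2, Cycs and Ndufa5 in each of the 9 mice, with the mean and SD of each group beside the points and axes from 0. Cox6b2 is lowest at 24 h (22.3 CPM on average), Cycs is highest at 24 h (60.5 CPM), and Cox6b1 and Ndufa5 are lowest at 72 h (109 and 14.8 CPM).

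Complex V is the ATP synthase. Its 1 gene called at 72 h against air was Atp5l, subunit g of the membrane part, with 116, 118 and 126 CPM in air, 117, 120 and 112 at 24 h, then 86.1, 98.9 and 98.8 at 72 h (-0.34 ± 0.07, adjusted p = 0.0331). Between 24 h and 72 h all 5 genes of the F1 head fell, as did the 4 stalk genes, the 3 subunit c genes and the 4 membrane genes. The head genes Atp5b and Atp5a1, the catalytic beta and the alpha subunit, went from 816 ± 9.5 to 660 ± 40.6 CPM (-0.31 ± 0.07, adjusted p = 0.0191) and from 676 ± 15.3 to 541 ± 24.6 CPM (-0.32 ± 0.07, adjusted p = 0.0162). The stalk genes Atp5o, which confers oligomycin sensitivity, and Atp5f1, subunit b, fell by 0.42 ± 0.07 and 0.41 ± 0.07 on the log2 scale. The membrane subunit genes Atp5j2 and Atp5mpl fell by 0.46 ± 0.07 and 0.40 ± 0.07. The subunit c genes Atp5g1, Atp5g2 and Atp5g3 fell by 0.44, 0.37 and 0.40, so that the least and the most abundant gene for the same protein moved alike in size. Atp5s, which encodes the coupling factor B and is not a subunit of the enzyme itself, had 3.78, 3.92 and 3.94 CPM in air and 3.96, 3.77 and 4.04 at 72 h and was the 1 gene of the 81 with a positive value there (0.02 ± 0.11, adjusted p = 0.945).

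The subunits that mitochondria encode for themselves showed no call. Of 13 such genes none was called by edgeR, DESeq2 or limma voom in any contrast. At 72 h against air 1 had an unadjusted edgeR p under 0.05, as did 3977 of the 15713 genes tested. Their median log2 fold change was 0.34 at 24 h against air, 0.49 at 72 h against air and 0.10 between the times after ozone. The abundant mt-Co1 had 8296, 8223 and 7757 CPM in air, 8272, 14244 and 8142 at 24 h, then 17973, 8464 and 8689 at 72 h. Only the 2 libraries with B cell markers were high, and relative to air their medians over the 13 genes were 0.83 and 1.08 on the log2 scale, while the other 7 libraries lay between -0.09 and 0.10. The share of counts from the mitochondrial genome was 5.25% and 6.18% there, with 2.71% to 3.07% elsewhere. Without them the median was 0.08 at 72 h against air and 0.05 against 24 h. Of the 13 genes 1, mt-Nd5, was then called higher against air (4.46% of all genes). So in the 2 remaining mice at 72 h the nuclear-encoded genes lay below air at medians of -0.29 and -0.23 while the mitochondrially encoded lay at 0.01 and 0.10. A test of the difference between the gene groups was not made.

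**Figure D5:**
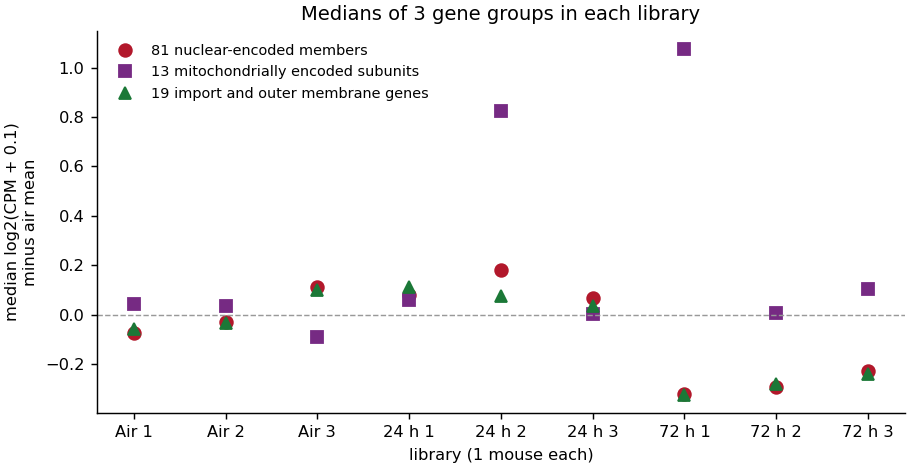
Median log2(CPM + 0.1) minus the air mean in each library for the 81 nuclear-encoded subunit genes, the 13 mitochondrially encoded ones and 19 genes of protein import and the outer membrane. The mitochondrially encoded median is high in replicate 2 at 24 h and replicate 1 at 72 h (0.83 and 1.08), and the other 2 groups of genes lie below air in all 3 libraries at 72 h.

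Of the other nuclear genes that serve the complexes, those of protein import had medians close to the subunits'. Of 19 genes of protein import and the outer membrane 8 fell at 72 h against air and 12 against 24 h, with medians of -0.28 and -0.38 and none higher, where 3.77% and 12.8% of all genes were called lower. Timm23, the channel of the inner membrane translocase, went from 63.7 ± 4.7 CPM in air and 67.5 ± 2.9 at 24 h to 49.0 ± 2.2 at 72 h (-0.38 ± 0.07 against air, adjusted p = 0.0277). Timm50, its receptor, Tomm7 of the outer membrane translocase and the channel gene Vdac3 fell by 0.56, 0.44 and 0.41 on the log2 scale against 24 h. Without the 2 libraries with B cell markers 2 of the 19 were lower against air and 11 against 24 h (2.7% and 8.68% of all genes). Without air replicate 2 as well 0 and 10 were lower (0.827% and 7.16%).

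Assembly factors build the complexes without remaining in them, and at 72 h against 24 h some were called for each complex. The counts are read against 3.77% of all genes called lower at 72 h against air and 12.8% against 24 h. Of 17 for complex I, 2 fell at 72 h against air (Ndufaf1 and Ndufaf2) and 6 against 24 h, among them Ndufaf2, Ndufaf5 and Ecsit at -0.54, -0.39 and -0.35. Of 22 for complex IV, 2 fell against air (Coa3 and Cox14) and 6 against 24 h, among them Cox16, Higd1a, Cmc2 and Coa3 at -0.60, -0.53, -0.48 and -0.41. Of 6 for complex III, 1 fell against air and 2 against 24 h. That 1 was Uqcc3, which had 14.3 ± 1.2 CPM in air, 10.7 ± 1.1 at 24 h and 9.84 ± 1.0 at 72 h (-0.53 ± 0.12 at 72 h, adjusted p = 0.0383), while Uqcc1 and Uqcc2 fell against 24 h. Of 5 for complex V, Tmem242 and Atpaf2 fell against air and these with Tmem70 and Fmc1 against 24 h. Among Sdha and 4 assembly factors of complex II none was called against air by edgeR, DESeq2 or limma voom. At an unadjusted edgeR p under 0.05 there were 4 at 72 h against air, and 3977 of the 15713 genes tested. Sdha and Sdhaf4 fell against 24 h. Many of these calls were lost when libraries were left out. Over all 9 lists, 37 genes were lower against 24 h (12.8% of all genes). There were 24 without the 2 libraries with B cell markers (8.68%) and 12 without replicate 2 at 72 h alone (3.25%). Without the 2 libraries with B cell markers (2.7% and 8.68% of all genes), the factors called lower against air and against 24 h were 0 and 1 for complex I, 1 and 1 for complex III, 3 and 6 for complex IV, 0 and 1 for complex V, and none for the complex II list. Without air replicate 2 as well (0.827% and 7.16%), 1 factor for complex IV was lower against air, and 1 for complex III and 5 for complex IV against 24 h. Whether subunits and assembly factors differed was not tested.

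Coenzyme Q synthesis supplies the ubiquinone that complexes I and II reduce. Of its 13 genes none was called at 72 h against air by edgeR or limma voom, 1 was lower by DESeq2, and 7 had an unadjusted p under 0.05. In that contrast 3.77% of all genes were called lower by edgeR and 7.78% by DESeq2. The unadjusted edgeR p was under 0.05 for 3977 of the 15713 genes tested. Against 24 h, where 12.8% of all genes were lower, Coq2, Coq6 and Coq7 fell, by 0.39, 0.37 and 0.47 on the log2 scale. Without the 2 libraries with B cell markers 1 of the 13 was lower against air and 3 against 24 h (2.7% and 8.68% of all genes). Without air replicate 2 as well 0 and 4 were (0.827% and 7.16%).

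Few regulators of respiratory genes were called. Of 15 tested none was called at 72 h against air by edgeR or limma voom, and 1 was higher by DESeq2 (4.54% of all genes). At an unadjusted edgeR p under 0.05 there were 3 of the 15, against 3977 of the 15713 genes tested. Against 24 h the mitochondrial transcription factors Tfam and Tfb1m fell and Gabpb2, a beta subunit of the GA-binding protein, rose, where 12.8% of all genes were lower and 5.39% higher. Without the 2 libraries with B cell markers 1 of the 15 was lower and 0 higher (8.68% and 6.63% of all genes). Without air replicate 2 as well edgeR called none (7.16% and 4.59%). Tfam had 31.8 ± 1.5 CPM in air, 35.2 ± 3.3 at 24 h and 29.5 ± 0.46 at 72 h (-0.25 ± 0.07, adjusted p = 0.0455), and Gabpb2 had 123 ± 11, 120 ± 0.78 and 143 ± 8.1 CPM (0.26 ± 0.07, adjusted p = 0.0430). At 24 h against air none of the 118 genes in these 9 lists was called by edgeR or limma voom, and DESeq2 called 1 lower, a complex III assembly factor.

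Some values rest on reads that neighbours or copies may share. Exon bases of 29 tested genes overlap another gene, and for 14 of them the partner had at least 10% of the counts. These values are uncertain, since the labels do not say whether counting used strand. Among the genes named above these are Cox6c with Vps13b, Cox4i1 with Emc8, Ndufs3 with Kbtbd4, Ndufs6 with Mrpl36, Ndufa2 with Tmco6, Ndufa11 with Vmac, Atp5f1 with Wdr77 and Ndufb2 with Braf on the opposite strand, and Cox6a2, where the partner Itgad had 2441 counts on average and Cox6a2 itself 38.2. A named processed pseudogene of an accessory complex I gene, Ndufb4c, held 451 to 857 counts per library and is outside the 87.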

How the data were processed

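Total RNA of lung macrophages from 9 mice was sequenced, 3 per group. The authors deposited estimated counts for each gene, not scaled to library size, and 80.5% of them are whole. The authors used Trimmomatic 0.39, FastQC, Salmon and DESeq2 on GRCm38.p6 per the submitters' processing notes. The sources used here give neither the annotation release nor the strand setting. A stranded total RNA kit was used after lysis of red cells, per the labels' protocols. Gene symbols and lengths came from GENCODE M21, which matched 54107 of 54281 identifiers. An unnamed last column with 3 gene symbols and no measurement was not used.

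Counts were rounded and analysed in R 4.3.3. The filterByExpr filter of edgeR 4.0.16 kept 15713 genes. After TMM scaling, 1 quasi-likelihood fit took the 9 libraries, with 6 residual degrees of freedom and a common biological coefficient of variation of 0.312. P-values were adjusted over these genes by the Benjamini-Hochberg method. SE is the size of the fold change on the log2 scale over the square root of the F statistic. The procedure was tested on simulated data. The smallest p that exact permutation of 3 against 3 mice allows is 0.1, two-sided. Libraries of a group were no copies of each other, with 6.82 to 128 as the chi-square per degree of freedom. Alternatives were other scalings, filters and tools (DESeq2 1.42.0, limma 3.58.1 with voom), a replicate block, the 6 libraries compared, removal of the most abundant genes and leaving out each library, which kept the same 15713 genes. Fits without the 2 libraries with B cell markers, and without these and air replicate 2, were added after seeing the data. The genes and lists were chosen with earlier results of these data known. Genes named are those called (or the 20 with the smallest p), the extremes of each complex, its highest per length, all isoform pairs, those below the filter, up to 4 called genes per list and Sdha. Printed promoters, the gene names outside these and the shared-exon partners were chosen after values were seen. The values of 1 complex I gene are not reported here, although it is in the counts.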

Additional observations from a re-analysis of the deposited data

Results flagged for a closer look

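The 2 times after ozone differed from each other for most of the subunit genes, by the edgeR test of 72 h against 24 h itself. Of 81 tested genes 73 were lower at 72 h and 1 was higher, Cox6b2, with a log2 fold change of 0.27. All 3 mice at 72 h lay below all 3 at 24 h for 79 of the 81 genes, against 22.7% of all genes tested. The 20 genes with the smallest p were among these. They were picked by that same contrast, so their separation is no further support. In complex I the log2 fold changes were -0.60 for Ndufa12, -0.59 for Ndufa5, -0.52 for Ndufs6, -0.50 for Ndufa2, -0.40 for Ndufa8, -0.40 for Ndufv1, -0.39 for Ndufs5, -0.38 for Ndufa9, -0.36 for Ndufs3 and -0.33 for Ndufa10. In complex III they were -0.39 for Uqcrc1 and -0.38 for Cyc1, and for cytochrome c, Cycs, -0.47. In complex IV they were -0.50 for Cox6a1 and -0.45 for Ndufa4. In complex V they were -0.46 for Atp5j2, -0.44 for Atp5g1, -0.42 for Atp5o, -0.41 for Atp5f1 and -0.40 for Atp5mpl. Of these 20, 17 were called in all 9 fits that left out 1 library.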

How the results depend on the processing

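The median log2 fold change of the subunit genes kept its sign in all alternatives run, while the number called at 72 h against air did not hold its size. Lower at 72 h than in air were 20 in the report (3.77% of all genes), 7 with DESeq2 size factors (1.79%) and 2 with upper quartile scaling (0.681%). With no filter there were 5 (0.497%), with a filter of 1 CPM 7 (2.03%) and with DESeq2 51 (7.78%). With mitochondrial genes, ribosomal RNA and the top 10 genes removed there were 13 (3.04%). Without the 2 libraries with B cell markers there were 10 (2.7%), and without these and air replicate 2 there were 2 (0.827%). Leaving out 1 library gave 0 to 36 lower (0.0127% to 5.13% of all genes). At 24 h against air DESeq2 called 1 lower (1.23%). Between 24 h and 72 h, 43 were lower without the 2 libraries (median -0.30, 8.68% of all genes) and 31 without all 3 (7.16%). With 1 library left out 18 to 73 were lower (3.25% to 12.5%). The 1 gene called higher there (5.39% of all genes) became 0 with no filter (1.2%), with limma voom (5.82%) and with only the 6 libraries compared (2.92%). It became 0 to 1 with 1 library left out (0.936% to 6.47%).

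Other genes of the pathway called lower at 72 h against air were 15 in the report, 4 with DESeq2 size factors and 1 with upper quartile scaling. There were 2 with no filter, 3 with 1 CPM and 26 with DESeq2 (and 1 higher, with 4.54% of all genes). Without the 2 libraries there were 7 (and 1 higher, with 4.46%), without all 3 there was 1, and with 1 library left out 0 to 19. The shares of all genes called lower in these fits are those given above. At 24 h against air DESeq2 called 1 lower. Between 24 h and 72 h, 37 lower (12.8% of all genes) became 21 with no filter (4.07%), 24 without the 2 libraries (8.68%) and 20 without all 3 (7.16%). With 1 library left out they became 12 to 37 (3.25% to 12.5%). The 1 higher (5.39%) became 0 with no filter (1.2%) and in both fits without the libraries that stood apart (6.63% and 4.59%). It became 2 with 1 CPM (8.23%) or DESeq2 (8.64%), and 0 to 1 with 1 library left out.

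With the replicate number as a block, 0 subunit genes were lower at 72 h against air, and between 24 h and 72 h 54 were lower and 0 higher. The other pathway genes called were 0 lower against air, and 21 lower and 0 higher against 24 h. Same-numbered samples correlated at -0.67 to 0.53 after group means were taken off. Replicate 2 at 24 h and replicate 1 at 72 h stood apart and weigh on these values, so they cannot show whether the numbers pair the mice. Of all genes tested, 0.0255% were lower against air and 7.14% against 24 h with the block. With merged exons, the medians per length in air were 26.4 CPM per kb for complex I, 36.8 for II, 59.6 for III, 64.8 for IV and 45.8 for V, and 15.2 for cytochrome c. The cause of each change was not tested. Of the 6 genes below the filter 3 had no count in any library, and whether depth limited them was not tested.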
